A study of Mus musculus with 12 samples.

Results

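Interleukin 6 (Il6) and the cytokines that signal through the shared receptor chain gp130 were followed in GMP of the mouse, the granulocyte-monocyte progenitors of bone marrow from which neutrophils and monocytes develop. The 10 genes are the ligands Il6, Osm and Lif, the receptor chains Il6ra, Il11ra1, Il6st, Lifr and Osmr, the kinase Jak1 and the transcription factor Stat3. They were found by the gene name printed beside each probe of the scanner files, among 30119 genes on the array, and were selected on their levels in these same 4 groups, with earlier results of these data known. Their levels and differences are therefore given as a description without a test. A further 75 genes of the pathway were set out in 7 lists, and the 69 of them with signal were tested in a fit over the whole array.

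RNA was measured on 12 one-colour Cy3 arrays in a study that sought target genes of Runx1, which encodes a transcription factor needed to form blood cells. The RUNX1-ERt2 group (2 arrays) and the ERt2 group (2 arrays) came from Runx1fl/fl-Tg(vav-Cre) bone marrow taken on day 3 after the donors received 5-fluorouracil (150 mg/kg), a drug that kills dividing cells, and infected with an MIG retrovirus. That virus carried GFP with RUNX1-ERt2, a RUNX1 protein joined to a hormone-binding domain that responds to tamoxifen, or with ERt2, the domain alone, and infected cells were given to lethally irradiated recipients. After 6 weeks tamoxifen (49.5 µg/g) was given on 3 days, and viable GFP+ GMP were sorted 24 h later. The protocol limits tamoxifen to a part of the mice, but every one of the 4 transplanted samples is labelled with it, and this was followed. The ko group (4 arrays) was untransplanted GMP of Runx1fl/fl-Tg(vav-Cre) mice, and the wt group (4 arrays) was GMP of Runx1+/+-Tg(vav-Cre) mice. All groups thus carry vav-Cre, which drives Cre recombinase in blood cells, and all but wt carry the floxed Runx1 alleles and are titled Runx1Δ/Δ, with Runx1 deleted. No label gives the age of the mice, and nothing says whether each array had mice of its own, so p-values speak only for the spread among these arrays, part of which may be technical.

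Il6 and Il11 first bind receptor chains of their own (Il6ra and Il11ra1). The complex then joins gp130, the protein of Il6st, which all gp130 cytokines use to pass the signal inwards. Lif signals through gp130 joined to the Lifr protein, and Osm through gp130 joined to the Osmr or Lifr protein. Jak1 and its relatives, bound to these chains, phosphorylate Stat3, which moves to the nucleus and switches on genes that include its own brake, Socs3. In bone marrow, Il6 is known as a factor that favours myeloid output in inflammation.

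The Il6 promoter is shown first, since factors of the lists tested here are known to act on it, although no array value was read from it. It is that of RefSeq (GRCm38.p6, chr5:30012864-30013113, plus strand), 250 bases that end at the base before the transcription start, in which capitals mark the letters found by a search of both strands.
Il6 promoter: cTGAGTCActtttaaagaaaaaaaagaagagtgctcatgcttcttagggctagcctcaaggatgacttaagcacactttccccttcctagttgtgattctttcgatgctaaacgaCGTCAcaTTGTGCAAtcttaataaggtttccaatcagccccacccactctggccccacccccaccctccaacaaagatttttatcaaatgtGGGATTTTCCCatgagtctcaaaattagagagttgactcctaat

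From 5′ to 3′ the capitals are a match to the AP-1 letters TGANTCA at −249 to −243, to the reverse of the CRE half-site letters TGACG at −135 to −131, to the C/EBP letters TTGCNNAA (on the minus strand) at −128 to −121, and to the NF-kB letters GGGNNNNTCC. The NF-kB letters matched on both strands, at −44 to −35 and, overlapping it, at −43 to −34. Of 32536 promoter windows of this length, 6.73% hold the AP-1 letters, 17.9% the CRE half-site, 9.57% the C/EBP letters and 16.5% the NF-kB letters. The RUNX letters TGTGGT or TGCGGT are in 18.5% of all windows and in those of 2 genes of the 9 with an entry, Lif and the second start of Il11ra1. They are not among the letters of the Il6 window, and a match or its lack is a description of the letters only.

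The array reads Il6, Il6ra and Il6st through 1 probe of 60 bases each, of which the first 30 bases are shown with the position of the whole probe in mm9, because they gave the 3 largest differences among the 10 genes between RUNX1-ERt2 and ERt2.
Il6 (chr5:30346367-30346426, plus strand): ctgttacctagccagatggtttcttggaat
Il6ra (chr3:89674054-89674113, minus strand): aggaccaagtgcagtaacggtagcccaaac
Il6st (chr13:113296586-113296645, plus strand): atcttctcacagtaagcagtctagttatgg

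Each array had 53.5% to 63.1% of its probes well above background. Its median processed signal was 40.2 to 54.4 on the transplanted arrays, against 61.4 to 92.5 on the ko and wt arrays, and no spot was saturated. The ko and wt replicates 1 and 2 shared slide 1 and replicates 3 and 4 shared slide 2, whereas RUNX1-ERt2 and ERt2 each lay on a slide of its own, so that slide and group cannot be told apart for them. Levels are log2 processed intensity relative to the 75th percentile of the array, and a level of 1 probe is set only against the same probe. In bulk RNA, fewer cells of a type and less RNA per cell cannot be told apart. The 9 GMP markers (Mpo, Elane and others) were above background on every array, but their levels differed between the groups. On the linear scale they summed to 486 to 678 in RUNX1-ERt2 against 932 to 1063 in ERt2. In ko they summed to 433 to 563, against 632 to 886 in wt. Elane averaged 4.65 in RUNX1-ERt2 against 7.03 in ERt2, and 4.83 in ko against 5.97 in wt. Kit was lower with RUNX1-ERt2 (3.44 against 4.18) but higher in ko (4.03 against 3.51). The part of this in the values below was not tested. Runx1 itself read higher in ko than in wt on both of its probes (differences of 1.69 and 1.61) and lower in RUNX1-ERt2 than in ERt2 (−1.09 and −0.94). No source used here places these probes inside or outside the floxed segment, so they check nothing.

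Il6 had the widest span of the tested genes of the group, 6.31 log2 units between the lowest and the highest group mean. In RUNX1-ERt2 GMP it read −1.14 and 0.07, and in ERt2 GMP −6.44 and −7.25, which is not well above background on either array. In ko GMP it read −3.62, −4.04, −3.32 and −3.74, and in wt GMP −2.06, −2.21, −2.01 and −1.48. The groups ran in the order RUNX1-ERt2, wt, ko, ERt2 from high to low, and the arrays of no 2 neighbours in that order overlapped. In processed signal before scaling these were 452 and 1061 with RUNX1-ERt2, 11.1 and 5.54 with ERt2, 84.5 to 124 in ko and 304 to 353 in wt.

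Il6 was lower in ko than in wt by 1.74 log2 units (difference −1.74 ± 0.28, SE of the fit), with −1.69 on slide 1 and −1.78 on slide 2. It was at least 25.1-fold higher with RUNX1-ERt2 than with ERt2 and at least 2.84-fold lower in ERt2 than in ko. These bounds, here and below, hold for the scaled processed signal only. A dim group is set to the lowest signal well above background on its arrays or to the probe's own, whichever is higher. The fitted differences, 6.31 ± 0.40 and −3.16 ± 0.34, became 3.33 and −0.78 with normexp background correction. The normexp differences are smaller than the bounds, so the bounds do not carry over to that setting. ERt2 GMP thus read lower than ko GMP although both come from Runx1fl/fl-Tg(vav-Cre) cells, and these groups also differ in virus, transplantation, tamoxifen and slide.

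Markers of other cells that a GMP gate could hold were summed on the linear scale. The 6 B and plasma cell markers summed to 14.9 to 31.3 in RUNX1-ERt2 against 9.79 to 11.1 in ERt2, and to 6.02 to 7.73 in ko against 9.05 to 16.0 in wt, so this sum moved with Il6 in both comparisons, through different markers. Vpreb1 averaged 3.75 in RUNX1-ERt2 against −2.11 in ERt2 while Cd79b averaged 2.40 against 3.15, and Jchain averaged 0.13 in ko against 2.80 in wt while Cd79b averaged 2.21 against 2.15. Of those markers Ms4a1, which encodes CD20, was not above background on any transplanted or ko array. The 6 T and NK cell markers summed to 14.9 to 15.9 in RUNX1-ERt2 against 36.2 to 48.8 in ERt2, and to 8.43 to 13.2 in ko against 20.0 to 34.4 in wt. Nkg7, the brightest of these, averaged 3.80 in RUNX1-ERt2 against 5.37 in ERt2, while Cd3e differed little (−1.41 against −1.36). Lck averaged −0.29 against −1.73, and Klrb1c, Cd3d and Cd3g were also higher, with Cd3g above background on no ERt2 array. In ko, Nkg7, Lck and Cd3e averaged lower than in wt, and Klrb1c, Cd3d and Cd3g higher. The 7 monocyte and macrophage markers summed to 6.86 to 10.7 in RUNX1-ERt2 against 30.7 to 36.3 in ERt2, and to 8.01 to 24.2 in ko against 19.4 to 33.4 in wt, with all 7 above background on every array.

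The 7 basophil and mast cell markers summed to 51.0 to 68.3 in RUNX1-ERt2 against 96.0 to 104 in ERt2. In ko they summed to 53.0 to 84.9, against 39.2 to 45.6 in wt. The single markers moved both ways. With RUNX1-ERt2, Hdc averaged 3.42 against 5.87 in ERt2, and Mcpt8 was also lower. Prss34 averaged 1.61 against −1.69, and Ms4a2 and Gata2 were also higher. In ko, Cpa3 averaged 5.30 against 3.38 in wt, with Hdc and Gata2 also higher. Mcpt8 averaged −1.12 against 2.22, with Prss34, Ms4a2 and Fcer1a also lower. Of these, Fcer1a, the IgE receptor chain, was above background on no ko array and on all wt arrays. The 10 stroma and endothelium markers summed to 3.88 to 4.15 in RUNX1-ERt2 against 3.49 to 3.90 in ERt2, and to 5.73 to 7.63 in ko against 7.26 to 10.5 in wt, with Cdh5 and Col3a1 above background on no array. The part of these cells in the Il6 values was not tested.

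**Figure D1:**
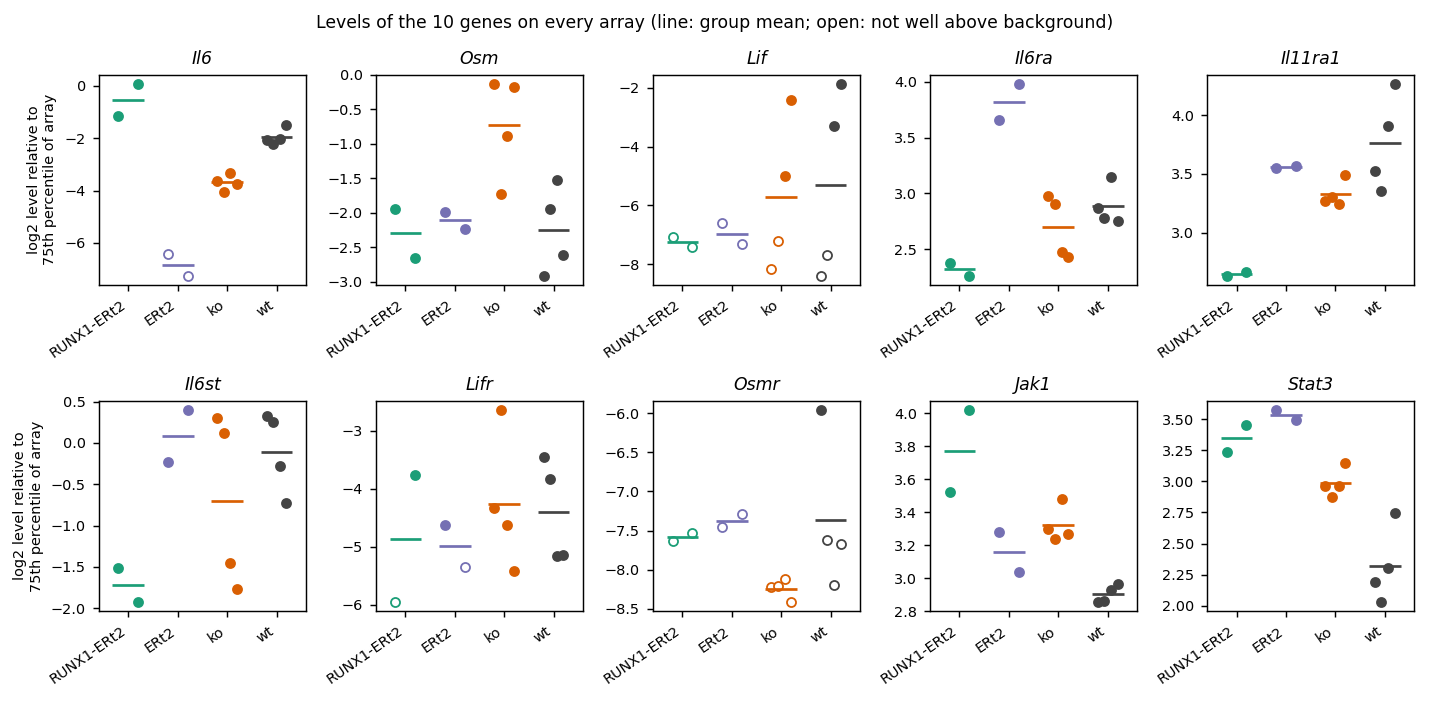
Levels of the 10 genes on every array (y axis, log2 relative to the 75th percentile of the array) in the 4 groups, with 1 point per array, open where the probe was not well above background, and a line at the group mean. Il6 falls into 4 separate bands, with the ERt2 arrays at −6.44 and −7.25, whereas Osm is highest on 3 ko arrays.

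Osm, oncostatin M, is a ligand made by activated myeloid cells. It read −1.94 and −2.66 in RUNX1-ERt2 and −1.99 and −2.23 in ERt2. In ko it read −0.14, −1.73, −0.88 and −0.18, and in wt −2.91, −1.94, −1.53 and −2.60. Osm in ko exceeded that in wt by 1.51 ± 0.40 (1.49 and 1.53 on the slides), and the arrays overlapped because ko replicate 2 lay below wt replicate 3.

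Osm was lower in ERt2 than in ko (−1.38 ± 0.49), with no overlap, and did not separate RUNX1-ERt2 from ERt2 (−0.19 ± 0.57). The ko array with the lowest Osm, replicate 2, was also the lowest ko array for the immediate-early gene Fos (2.69, against 4.70 to 5.56 on the other ko arrays) and for Zfp36 (−0.05, against 1.61 to 2.72). Among wt arrays Fos and Zfp36 were likewise lowest on replicate 1 (2.04 and −1.62), which had the lowest Osm. These genes were compared with Osm after their values were seen, and their part in the Osm values was not tested.

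Lif, leukaemia inhibitory factor, was above background on 4 arrays, which are the ko and wt arrays of slide 2. It read −5.01 and −2.41 on the ko arrays of that slide and −3.31 and −1.88 on its wt arrays, against −8.15 to −7.22 in ko and −8.38 to −7.69 in wt on slide 1. Its signal thus went with the slide, and it was not tested. The Osm and Lif probes lie 31.9 kb apart on chromosome 11.

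Il6ra, the chain that binds Il6, was highest with ERt2. It read 2.38 and 2.26 in RUNX1-ERt2 and 3.66 and 3.98 in ERt2, a difference of −1.50 ± 0.21 opposite in sign to that of Il6. In ko it read 2.98, 2.90, 2.48 and 2.43, and in wt 2.87, 2.78, 3.15 and 2.75, so these groups overlapped (−0.19 ± 0.15, with 0.11 on slide 1 and −0.50 on slide 2). ERt2 was higher than ko by 1.12 ± 0.18 with no overlap, and every RUNX1-ERt2 array lay below every ko array.

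Il6st, which encodes gp130, was also lower with RUNX1-ERt2. It read −1.51 and −1.92 in RUNX1-ERt2 and −0.23 and 0.39 in ERt2, a difference of −1.80 ± 0.34. In ko it read 0.30, 0.12, −1.45 and −1.77, and in wt 0.32, 0.26, −0.28 and −0.73. The ko arrays of slide 2 were the low ones, so ko minus wt was −0.08 on slide 1 and −1.10 on slide 2 (−0.59 ± 0.24 in the fit). ERt2 minus ko was 0.78 ± 0.29, and the arrays overlapped.

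The 7 late neutrophil markers went the same way as Il6ra and Il6st between the transplanted groups. They summed to 50.2 to 57.8 in RUNX1-ERt2 against 310 to 438 in ERt2, and to 10.2 to 121 in ko against 23.2 to 130 in wt, with all 7 above background on every array. The 6 megakaryocyte markers summed to 13.8 to 41.4 in RUNX1-ERt2 against 9.57 to 20.2 in ERt2, and to 19.2 to 29.7 in ko against 7.81 to 12.3 in wt. The 6 erythroid markers summed to 86.9 to 99.2 in RUNX1-ERt2 against 75.8 to 135 in ERt2, and to 17.2 to 52.0 in ko against 15.9 to 31.1 in wt. Their part in the values of the receptor genes was not tested.

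Over the 12 arrays the tested genes most like Il6st were Ptpro, a receptor-type tyrosine phosphatase (Pearson r = 0.977), Dusp7 (0.968) and Sgpl1 (0.957), and those most like Il6 were Zfp251 (0.967), Bex4 (0.963) and Klhl30 (0.956). Bex4 averaged 1.38 in RUNX1-ERt2, −3.24 in ERt2, −0.91 in ko and 0.36 in wt. The arrays in these correlations share groups, slides and scaling, so the values describe likeness only.

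Il11ra1, the receptor chain for Il11, was lowest with RUNX1-ERt2. It read 2.64 and 2.66 there and 3.55 and 3.57 in ERt2, a difference of −0.91 ± 0.19. In ko it read 3.27, 3.30, 3.25 and 3.49, and in wt 3.52, 3.36, 3.91 and 4.26. The ko arrays lay mostly below the wt arrays (−0.43 ± 0.13, with −0.15 on slide 1 and −0.72 on slide 2), and ERt2 minus ko was 0.23 ± 0.17. Mice carry a near-identical gene, Il11ra2, which no probe of this array is named for, so the signal may include it.

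The Lifr chain was dim. Its brightest probe read −5.95 (not above background) and −3.77 in RUNX1-ERt2, −4.63 and −5.36 (not above background) in ERt2, −5.42 to −2.65 in ko and −5.17 to −3.45 in wt, and the groups overlapped. The differences were 0.15 ± 0.50 for ko minus wt, 0.14 ± 0.70 for RUNX1-ERt2 minus ERt2 and −0.74 ± 0.61 for ERt2 minus ko. Of its other probes, 1 was above background on 8 arrays and 1 on 3. The first of these gave −0.33 ± 0.21 for ko minus wt and 0.55 ± 0.26 for ERt2 minus ko, against the sign of the brightest probe. It gave 0.57 ± 0.30 for RUNX1-ERt2 minus ERt2, with no overlap. The other gave 0.26 ± 0.42, 0.59 ± 0.51 and 0.40 ± 0.59 in the same order. Osmr, the chain that Osm shares with Il31ra, was above background on 1 array (wt replicate 1, −5.96) and was not tested. The Osmr and Lifr probes lie 384 kb apart on chromosome 15.

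Jak1 and Stat3 were bright in every group. Jak1 read 3.52 and 4.02 in RUNX1-ERt2 and 3.28 and 3.04 in ERt2 (0.61 ± 0.16). It read 3.30, 3.24, 3.48 and 3.27 in ko and 2.86, 2.86, 2.93 and 2.96 in wt, with every ko array above every wt array (0.42 ± 0.11, with 0.41 and 0.43 on the slides). ERt2 and ko overlapped (−0.16 ± 0.14).

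Stat3 read 3.24 and 3.46 in RUNX1-ERt2, 3.57 and 3.49 in ERt2, 2.97, 2.87, 2.96 and 3.15 in ko, and 2.19, 2.03, 2.31 and 2.75 in wt. The order from high to low was ERt2, RUNX1-ERt2, ko, wt, and the first and second of these lay close (RUNX1-ERt2 minus ERt2, −0.18 ± 0.17). Stat3 in ko exceeded that in wt by 0.67 ± 0.12, and in ERt2 exceeded that in ko by 0.54 ± 0.15, and no array crossed in either. A second Stat3 probe, upstream in the transcript, gave 0.88 for ko minus wt, −0.29 for RUNX1-ERt2 minus ERt2 and 0.54 for ERt2 minus ko.

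**Figure D2:**
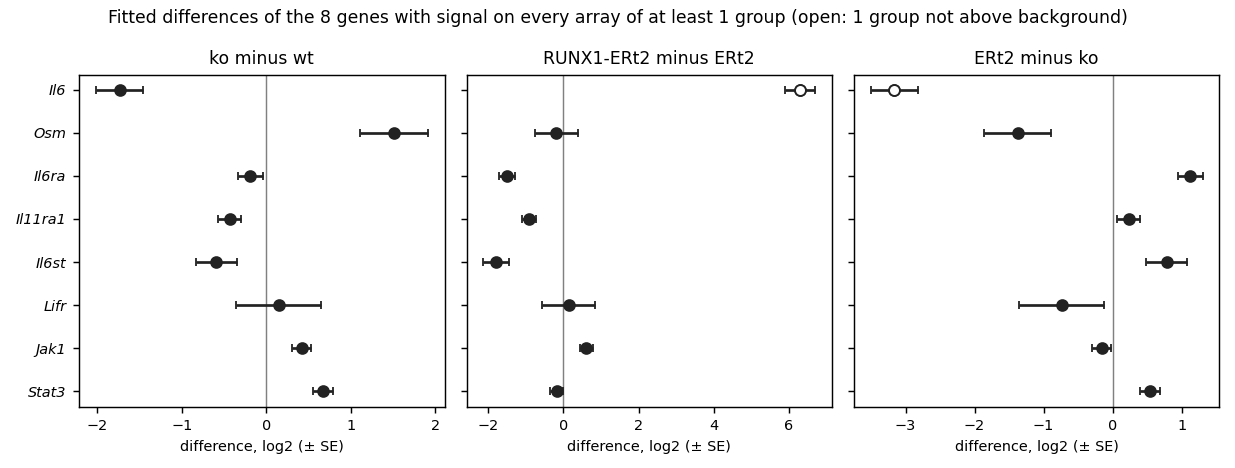
Fitted differences (x axis, log2, with the SE as bars) of the 8 genes tested, in 3 panels for ko minus wt, RUNX1-ERt2 minus ERt2 and ERt2 minus ko, with an open point where 1 group was not above background. Il6 stands at −1.74 for ko minus wt and at 6.31 for RUNX1-ERt2 minus ERt2, while Il6ra and Il6st stand at −1.50 and −1.80 in the second panel.

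Of the 10 genes, 8 passed the filter on dim probes. Of these 8, 5 lay past the threshold of 0.05 (limma, Benjamini-Hochberg over all genes) in ko against wt, 3 higher and 2 lower, where 25.3% of 17905 genes did. In RUNX1-ERt2 against ERt2 it was 5, 2 higher and 3 lower, where 19.1% of all genes did, and in ERt2 against ko it was 5, 3 higher and 2 lower, where 56.9% did. The arrays of ko and wt did not overlap for 3 of the 8, 2 higher and 1 lower, against 23.2% of all genes. Those of RUNX1-ERt2 and ERt2 did not overlap for 2 higher and 4 lower, against 29.1% and 29.8% (58.9% together), and those of ERt2 and ko for 3 higher and 2 lower, against 33.9% and 29.1% (63.0% together). Nothing is read from these counts, since the genes were chosen with them known, and ERt2 minus ko shares samples with each of the other comparisons. The count of 5 in ko against wt was 2 without wt replicate 1 or ko replicate 1, and 3 without wt replicate 3 or 4 or ko replicate 2, 3 or 4. That in ERt2 against ko was 3 without ko replicate 4 or either ERt2 array.

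The other genes of the pathway leaned to higher levels in ko. Of 75 listed genes 74 were on the array and 69 were tested. In ko against wt 23 were higher and 6 lower by limma's test (background 11.5% higher and 13.8% lower), with a median difference of 0.32 against −0.05 over all genes, and 19 in all without ko replicate 1. In RUNX1-ERt2 against ERt2 6 were higher and 9 lower (background 10.2% and 8.87%), with a median of −0.12 against 0.00, and 8, 9, 6 and 5 in all without ERt2 replicate 1, ERt2 replicate 2, RUNX1-ERt2 replicate 1 and RUNX1-ERt2 replicate 2. In ERt2 against ko 20 were higher and 20 lower (background 30.2% and 26.7%), with a median of −0.04 against 0.06, and 24 in all without ERt2 replicate 2.

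**Figure D3:**
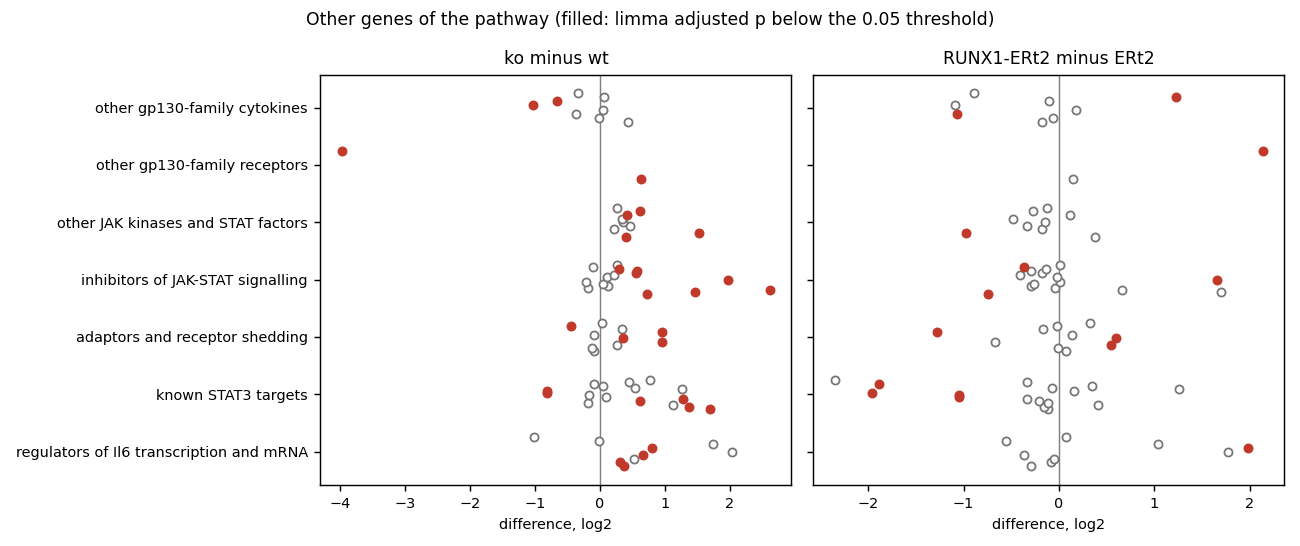
Differences (x axis, log2) of the 69 tested pathway genes by list, for ko minus wt and RUNX1-ERt2 minus ERt2, with 1 point per gene, filled where limma's adjusted p passed the threshold. The list of inhibitors has 7 filled points in ko minus wt, all to the right of 0, and Il31ra stands alone at −3.98 in that panel and at 2.14 in the other.

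Among the other gp130-family receptors, Il31ra, the gp130-like chain that binds IL-31 together with the Osmr protein, followed Il6 between both pairs of groups. It read −2.65 and −2.31 in RUNX1-ERt2, −5.07 and −4.17 in ERt2, −5.42, −5.37, −5.12 and −4.99 in ko, and −1.20, −1.22, −1.32 and −1.25 in wt. Il31ra fell in ko by 3.98 on the log2 scale (−3.98 ± 0.18, limma adjusted p = 4.49e-06, with −4.18 and −3.77 on the slides) and rose with RUNX1-ERt2 by 2.14 ± 0.26 (adjusted p = 0.000595). Both calls passed in every other setting. Its second probe gave −4.01 and 1.33. ERt2 minus ko was 0.61 ± 0.23 (adjusted p = 0.0448), a call that ended without ERt2 replicate 2 (0.517) and without any 1 of 9 other arrays. Il27ra, the IL-27 receptor chain that pairs with gp130, rose in ko (0.63 ± 0.14, adjusted p = 0.0107), and with normexp correction this call was lost (0.195).

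Of the 8 tested other gp130-family cytokines, 2 fell and none rose in ko, where 13.8% of all genes fell and 11.5% rose. Ctf1, cardiotrophin 1, fell by 1.02 (−1.02 ± 0.24, adjusted p = 0.0144), a call lost without the slide term (0.0707). Ctf2, which was not well above background on ko replicates 1 and 3, fell by 0.66 in the fit (−0.66 ± 0.19, adjusted p = 0.0311), and its call ended without wt replicate 2, 3 or 4 or ko replicate 1, 3 or 4 (adjusted p up to 0.0931). With RUNX1-ERt2, Clcf1, cardiotrophin-like cytokine, rose by 1.22 ± 0.33 (adjusted p = 0.0295), and the call ended without ERt2 replicate 2 (0.156), RUNX1-ERt2 replicate 1 (0.0759) or RUNX1-ERt2 replicate 2 (0.134).

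Of the 9 other JAK kinases and STAT factors, 4 rose and none fell in ko (11.5% and 13.8% of all genes), with a list median of 0.40. Jak3, the kinase of receptors that use the common gamma chain, read 1.43 and 1.37 in RUNX1-ERt2, 2.62 and 2.12 in ERt2, 2.25, 2.33, 1.58 and 1.91 in ko, and 0.30, 0.48, 0.61 and 0.57 in wt. It rose in ko by 1.53 ± 0.17 (adjusted p = 0.000475) and fell with RUNX1-ERt2 (−0.97 ± 0.24, adjusted p = 0.0223), the call in RUNX1-ERt2 ending without ERt2 replicate 1 (0.137), RUNX1-ERt2 replicate 1 (0.075) or RUNX1-ERt2 replicate 2 (0.0969). Stat5b rose in ko by 0.62 ± 0.09 (adjusted p = 0.0015). In ERt2 against ko Stat5b fell (−0.68 ± 0.11, adjusted p = 0.000643), while its other probe gave 0.13. Jak2 rose in ko by 0.40 ± 0.10 (adjusted p = 0.0204), a call that ended without ko replicate 1 (0.0506) or ko replicate 4 (0.0557). Stat5a fell in ERt2 against ko by 1.12 (−1.12 ± 0.14, adjusted p = 0.000195).

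Of the 15 inhibitors of JAK-STAT signalling, 7 rose and none fell in ko (11.5% and 13.8% of all genes), with a list median of 0.26. Cish, a SOCS-family protein known as a STAT5-induced brake, read −0.02 and −0.55 in RUNX1-ERt2, −1.84 and −2.05 in ERt2, 0.48, 0.72, 1.16 and 0.57 in ko, and −1.25, −1.05, −1.52 and −1.11 in wt. It rose in ko by 1.97 ± 0.19 (adjusted p = 0.000193) and also with RUNX1-ERt2, by 1.66 ± 0.26 (adjusted p = 0.00246), and fell in ERt2 against ko (−2.67 ± 0.23, adjusted p = 1.58e-05). Cish thus had the same sign in ko minus wt and in RUNX1-ERt2 minus ERt2, unlike Il6 and Il31ra.

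Socs3, which binds gp130 and blocks it, was named after its values were seen. It read 1.24 and 0.58 in RUNX1-ERt2, 0.49 and 0.01 in ERt2, 2.80, 1.99, 1.99 and 2.52 in ko, and −1.18, 0.23, 0.67 and −0.89 in wt. It rose in ko by 2.62 ± 0.42 (adjusted p = 0.00275, with 2.87 and 2.37 on the slides), and RUNX1-ERt2 minus ERt2 was 0.66 ± 0.59 (adjusted p = 0.506). In ERt2 against ko it fell (−2.07 ± 0.51, adjusted p = 0.00743), a call that ended without ERt2 replicate 2 (0.0639). Pias4 and Pias3, which bind activated STAT proteins, rose in ko by 0.56 each (± 0.08, adjusted p = 0.00114 and 0.00165), and Pias3 turned to −0.17 with normexp correction. Socs1, a JAK inhibitor, fell with RUNX1-ERt2 (−0.75 ± 0.18, adjusted p = 0.0197), which ended without ERt2 replicate 1 (0.0965), ERt2 replicate 2 (0.0586), RUNX1-ERt2 replicate 1 (0.0916) or RUNX1-ERt2 replicate 2 (0.0667).

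Of the 10 adaptors and shedding enzymes, 3 rose and 1 fell in ko (11.5% and 13.8% of all genes). Gab1, a docking protein, rose by 0.96 ± 0.15 (adjusted p = 0.00237, 0.171 with normexp correction). Adam17, the protease that sheds Il6ra from the cell surface, fell by 0.44 (−0.44 ± 0.10, adjusted p = 0.0113, 0.141 with normexp correction). Grb2, an adaptor to the Ras pathway, fell in ERt2 against ko by 1.63 (−1.63 ± 0.11, adjusted p = 4.36e-06) on its brighter probe, while its other probe gave 0.47.

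Of the 16 tested known STAT3 targets, 4 rose and 2 fell in ko (11.5% and 13.8% of all genes), with a list median of 0.49. Bcl2l1, which encodes the survival protein Bcl-xL, rose by 1.28 ± 0.11 (adjusted p = 8.86e-05). In ERt2 against ko Bcl2l1 fell (−1.23 ± 0.13, adjusted p = 6.33e-05) on its brighter probe, while its other probe gave −0.01. Bcl3, an IkB-like nuclear protein, rose in ko by 1.70 ± 0.17 (adjusted p = 0.000283). Bcl3 read 1.45 and 0.85 in RUNX1-ERt2, 1.33 and 1.22 in ERt2, 2.39, 2.49, 1.96 and 1.84 in ko, and 0.53, 1.14, 0.30 and −0.11 in wt, so RUNX1-ERt2 and ERt2 overlapped. Mcl1, another survival gene, rose in ko by 0.61 ± 0.11 (adjusted p = 0.00435). It averaged 4.28 in ko, 3.66 in wt and 3.72 in ERt2.

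With RUNX1-ERt2 none of these targets rose and 4 fell (10.2% and 8.87% of all genes). Ccnd1, cyclin D1, read −1.45 and −1.30 in RUNX1-ERt2 against 0.83 and 0.35 in ERt2 and fell by 1.96 (−1.96 ± 0.26, adjusted p = 0.000909). In ko Ccnd1 read −0.31 to −0.11 and in wt 0.16 to 0.92, so every ko array also lay below every wt array. Vegfa fell by 1.89 (−1.89 ± 0.40, adjusted p = 0.0106), which ended without ERt2 replicate 2 (0.0566) or RUNX1-ERt2 replicate 2 (0.0678). Cebpb, a factor of myeloid differentiation and of the Il6 promoter, fell by 1.05 (−1.05 ± 0.24, adjusted p = 0.0156), which ended without ERt2 replicate 2 (0.0897) or RUNX1-ERt2 replicate 2 (0.102).

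Of the 9 tested regulators of Il6 transcription and mRNA, 2 rose and 5 fell in ERt2 against ko, a comparison in which 56.9% of all genes passed, with a list median of −0.83 against 0.06 over all genes. Zc3h12a encodes Regnase-1, a nuclease that degrades Il6 mRNA, and read −4.76 and −4.96 in RUNX1-ERt2, −6.59 and −7.09 in ERt2 (not above background on either), −2.21 to −0.52 in ko and −2.63 to −2.09 in wt. It was at least 12.2-fold lower in ERt2 than in ko (adjusted p = 1.15e-06) and at least 1.25-fold higher with RUNX1-ERt2 than with ERt2 (adjusted p = 0.00454, 0.92 with normexp correction). Zfp36 encodes tristetraprolin, which promotes the decay of mRNAs with AU-rich elements, and was at least 104-fold lower in ERt2 than in ko (adjusted p = 2.78e-05).

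Fos, an AP-1 subunit from the list of STAT3 targets, read 1.45 and −2.51 in RUNX1-ERt2, −1.07 and −2.50 in ERt2, 2.69 to 5.56 in ko and 2.04 to 4.43 in wt. In ERt2 against ko it fell by 6.28 (−6.28 ± 1.08, adjusted p = 0.00106). Arid5a, whose protein stabilises Il6 mRNA, rose in ERt2 against ko by 1.14 ± 0.19 (adjusted p = 0.000791). Il6, Osm, Zc3h12a, Zfp36 and Fos were thus all lower in ERt2 than in ko, and the part of slide, transplantation or cell handling in this was not tested.

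In ko against wt, 4 of these regulators rose and none fell (11.5% and 13.8% of all genes). The NF-kB subunit genes Rela (0.32 ± 0.08, adjusted p = 0.0185) and Nfkb1 (0.38 ± 0.10, adjusted p = 0.0254) rose while Il6 was lower. Nfkbia of the same list also rose (0.66 ± 0.19, adjusted p = 0.0326). The Nfkbia call ended without the slide term (0.536), and without wt replicate 1, 3 or 4 or ko replicate 1 or 4. The Rela call ended without ko replicate 1 (0.0553) or ko replicate 4 (0.0596), and with the array median (0.054) or no filter on dim probes (0.0563). The Nfkb1 call ended without wt replicate 1 (0.0723) or ko replicate 1 (0.063), 2 (0.0527) or 3 (0.0568). It also ended with the array median (0.108) or no filter on dim probes (0.0626).

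**Figure D4:**
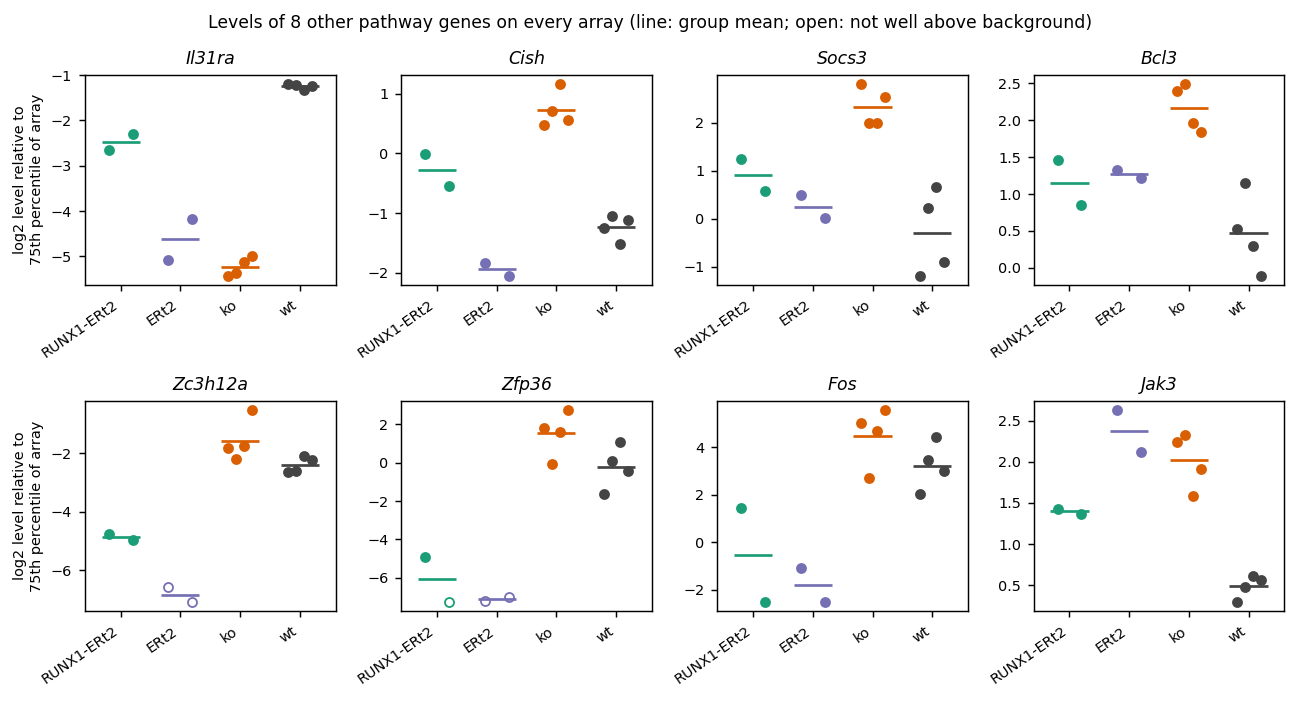
Levels of 8 other pathway genes on every array (y axis, log2 relative to the 75th percentile of the array) in the 4 groups, with 1 point per array, open where not well above background, and a line at the group mean. Il31ra is low in ERt2 and ko, Cish is high in RUNX1-ERt2 and ko, and Zc3h12a, Zfp36 and Fos are low in the transplanted groups.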

How the data were processed

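Sample titles gave the groups and replicate numbers. The deposited spot intensities are background-subtracted output of Agilent Feature Extraction 10.7.3.1, per the file headers, while the submitters' processing notes name version 9.1. The authors' series matrix holds linear signal values that matched the scanner signal up to a constant for each array (SD of the log2 ratio 0.0447 to 0.0766), with column medians of 0.91 to 0.94, and each of its ko and wt columns held the values of a different replicate from its group. It served as an alternative only.

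Control spots and 129 to 207 outlier spots on each array were dropped, replicate spots were averaged, and the deposited intensity was divided by the 75th percentile of its array before taking log2. Of 39429 probes, 23469 passed the filter (signal well above background on all arrays of 1 group or more), and the probe with the highest mean stood for each symbol, which left 17905 genes. These were tested with limma 3.58.1 (R 4.3.3) in 1 fit of group means over 12 arrays with a slide term for ko and wt (7 residual and 2.11 prior degrees of freedom), with Benjamini-Hochberg adjustment and a threshold of 0.05. The scripts were tested on simulated data. The number of arrays limits the precision.

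The genes, lists and tests were chosen with earlier results of these data known. Pathway genes were named by a rule: up to 3 tested genes of each list and comparison with the smallest adjusted p past the threshold, or else 1. Some of these are given only in counts or are not reported here, and Socs3 was added after its values were seen. Same-numbered ko and wt arrays deviated together from their group means (r = 0.37, 0.35, 0.18 and 0.67), which pairs them through the shared slide (within a slide, −0.03 and 0.43). Alternatives were normexp (offset 50), quantile normalization, the array median, the series matrix, no filter and a stricter filter, no slide term, a replicate block, the mean over probes, only the arrays compared and each array left out. The fits of 1 slide and the blocks of the transplanted arrays were chosen after seeing the data.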

Additional observations from a re-analysis of the deposited data

Results flagged for a closer look

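A scan covered 102 groups of 4 arrays. They were the ko and wt arrays of each probe of the 10 genes and of the other genes named by rule. Junb, Nfkbiz and Socs3 were added outside the rule. By Dixon's test, 3 of the groups had an array that stood apart from the rest. Chance gives about 1 in 20 such groups. Stat5a read 3.28 on ko replicate 4, above the other ko arrays. Arid5a read 2.33 and Cebpb 1.19 on wt replicate 4, below the other wt arrays.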

How the results depend on the processing

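Il31ra, Jak3, Cish, Bcl2l1 and Bcl3 kept their calls in ko against wt in all settings run, also within each slide. With normexp correction the genes past the threshold numbered 1982 in ko against wt (4536 as reported), 1389 in RUNX1-ERt2 against ERt2 (3418) and 6448 in ERt2 against ko (10186); pathway genes numbered 18 (29) and 5 (15) in the first and second of these, and of the 10 genes 3, 3 and 2 (5 each). With normexp, Pias3 turned to −0.17 in ko against wt and Ctf2 (not above background on either ERt2 array) to 0.29 in ERt2 against ko. The cause of these turns was not tested. Ptpn2 turned from −0.37 to 0.36 in RUNX1-ERt2 against ERt2 with the mean over its probes. Its probes differed in sign there, with −0.37 on the brightest and 1.30 and 0.16 on the others. With no filter on dim probes there were 15471 genes in ERt2 against ko, 19 and 8 pathway genes in the first and second comparison, and 3 of the 10 genes in the first. Quantile normalization left 3 of the 10 genes in ERt2 against ko. In RUNX1-ERt2 against ERt2, no slide term gave 8 pathway genes, and only the arrays compared gave 2069 genes and 8 pathway genes, with fewer arrays. In ko against wt, slide 1 alone gave 2135 genes, 15 pathway genes and 1 of the 10 genes, and slide 2 alone gave 722, 6 and 0 (limma; 6 of 8 at an unadjusted p under 0.05), with 2 arrays a group.

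Leaving out each array in turn gave 2850 to 4833 genes, 19 to 27 pathway genes and 2 to 4 of the 10 genes in ko against wt, with 2945, 2850, 2876 and 2862 genes without wt replicate 1, wt replicate 2, ko replicate 1 and ko replicate 4. It gave 2180 to 3681, 5 to 16 and 4 to 5 in RUNX1-ERt2 against ERt2 (2230 without ERt2 replicate 1, 2180 without RUNX1-ERt2 replicate 2), and 7466 to 10521, 24 to 41 and 3 to 5 in ERt2 against ko. With the replicate block, 33 pathway genes passed in ko against wt, and no call of a gene named in the report was lost. RUNX1-ERt2 and ERt2 deviations correlated at −0.19, and the block as numbered gave 3139 genes and the crossed block 3698.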
